A study of Bos taurus with 18 samples.

Results

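The 6 genes described here were grouped as negative feedback regulators of NF-kB signalling: NFKBIA (ENSBTAG00000016683), NFKBIZ (ENSBTAG00000010987), TNFAIP3 (ENSBTAG00000000436), TNIP1 (ENSBTAG00000012671), ZC3H12A (ENSBTAG00000011316) and BIRC3 (ENSBTAG00000024918). They were named as a list with earlier results of these data known. Matching by identifier found 6 of the 36075 bovine genes counted in the RNA sequencing libraries of a 3D endometrium-on-a-chip. In that device, primary bovine endometrial epithelial cells (bEECs) lined the lower chamber under flow, and primary endometrial stromal cells (bESCs) lay in a static chamber that a porous membrane divided from it. For 24 h culture medium flowed past the bEECs. It held either the PBS vehicle (vehicle control, VC) or 1 μg/mL of a recombinant bovine protein, CAPG (rbCAPG) or PDI (rbPDI). CAPG, an actin-capping protein, and PDI, a disulphide isomerase, are both conceptus-derived, and the comparison with VC asks how the endometrium responds to each of them. Each cell type with each treatment gave 3 samples, 18 in all, from 3 uterine tracts collected in the late-luteal stage at an abattoir, and a device was seeded with bEECs and bESCs of the same animal. The cells had been cultured and enriched by differential trypsinization and were not sorted by a marker. Under the microscope each population was judged to be highly enriched, an approach that earlier flow cytometry had checked.

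NF-kB dimers wait in the cytoplasm bound to inhibitor proteins, and receptors for cytokines or microbial products free them through ubiquitin chains and the IKK kinase. Among the genes that the freed dimers switch on are their own brakes. IkB-alpha, the product of NFKBIA, takes NF-kB back out of the nucleus, whereas A20 (TNFAIP3) and its partner ABIN1 (TNIP1) act on the ubiquitin chains. Regnase-1 (ZC3H12A) degrades the messenger RNA of cytokines such as IL6. In the endometrium the pathway is best known from the response to infection and from the chemokines that are released around implantation.

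Totals ran from 10072851 to 44253149 counts per sample, the lowest in rbPDI bESC replicate 1, and in each bESC group replicate 1 had the lowest total. Levels are given as CPM, read counts scaled to a common total with TMM factors, which compare 1 gene between samples and not different genes with each other. A gene was called when edgeR's quasi-likelihood test over 17931 genes gave an adjusted p-value (Benjamini-Hochberg) under 0.05 and the log2 fold change exceeded 1 in either direction. In the VC samples all 4 epithelial markers were called lower and all 6 stromal markers called higher in bESCs than in bEECs, with markers drawn from the study's lists of genes changed by rbCAPG in these libraries. In bEECs the summed level of the 6 stromal markers ran from 10.2 to 19.6 CPM with VC, from 25.0 to 63.7 CPM with rbCAPG and from 18.5 to 50.4 CPM with rbPDI. In bESCs it ran from 245 to 431 CPM. None of the 6 was called with either protein in bEECs. All 6 had positive log2 fold changes with both, which is not independent evidence of a direction, since they were drawn from the study's list for rbCAPG in bEECs and the rbPDI comparison uses the same VC samples. The summed level of the 4 epithelial markers ran from 583 to 1426 CPM in VC bEECs and from 2728 to 4234 CPM in the treated bEECs, without overlap, and no single one of them was called there. Most of that sum was AGR2, at 203 to 852 CPM with VC and 1930.4 to 3356 CPM in treated bEECs, whereas OCLN, a tight junction gene, ran from 85.6 to 105 CPM and from 89.0 to 118 CPM. In bESCs that sum ran from 3.34 to 4.27 CPM with VC and from 4.94 to 8.67 CPM with rbCAPG, without overlap. With rbPDI it reached 7.72 CPM and overlapped VC. All 4 epithelial markers had positive log2 fold changes there with both proteins, against the same VC samples. None was called with rbCAPG, and 1 of the 4 was called higher with rbPDI. OCLN, drawn from the study's list for rbCAPG in bESCs, ran there from 0.227 to 0.308 CPM with VC. It ran from 0.992 to 2.05 CPM with rbCAPG and from 0.261 to 3.24 CPM with rbPDI.

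Every one of the 6 regulators was higher in bEECs with rbCAPG and with rbPDI than with VC, and every one was called in both comparisons. The median log2 fold change was 2.27 over the 6 genes with rbCAPG, against 0.02 over all tested genes, and 2.51 with rbPDI, against -0.01. For comparison, 0.513% of tested genes were called higher with rbCAPG and 0.770% with rbPDI. With the animal as a block these shares were 2.04% and 2.57%, and all 6 regulators were again called. The 3 treated samples of each protein lay above the 3 VC samples for all 6 genes, as they did for 8.72% of tested genes with rbCAPG and 8.06% with rbPDI. Both comparisons use the same VC samples. The 6 genes were chosen with earlier results of these data known. Their identifiers came from the study's list for rbCAPG in bESCs of the same devices. Their direction in bEECs is therefore not fully independent evidence, and the shares over all tested genes are no test of the 6. In bulk samples, a change in the share of cells that express a gene and a change in RNA per cell cannot be told apart. The part of the stromal and epithelial marker levels in these results was not tested.

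**Figure D1:**
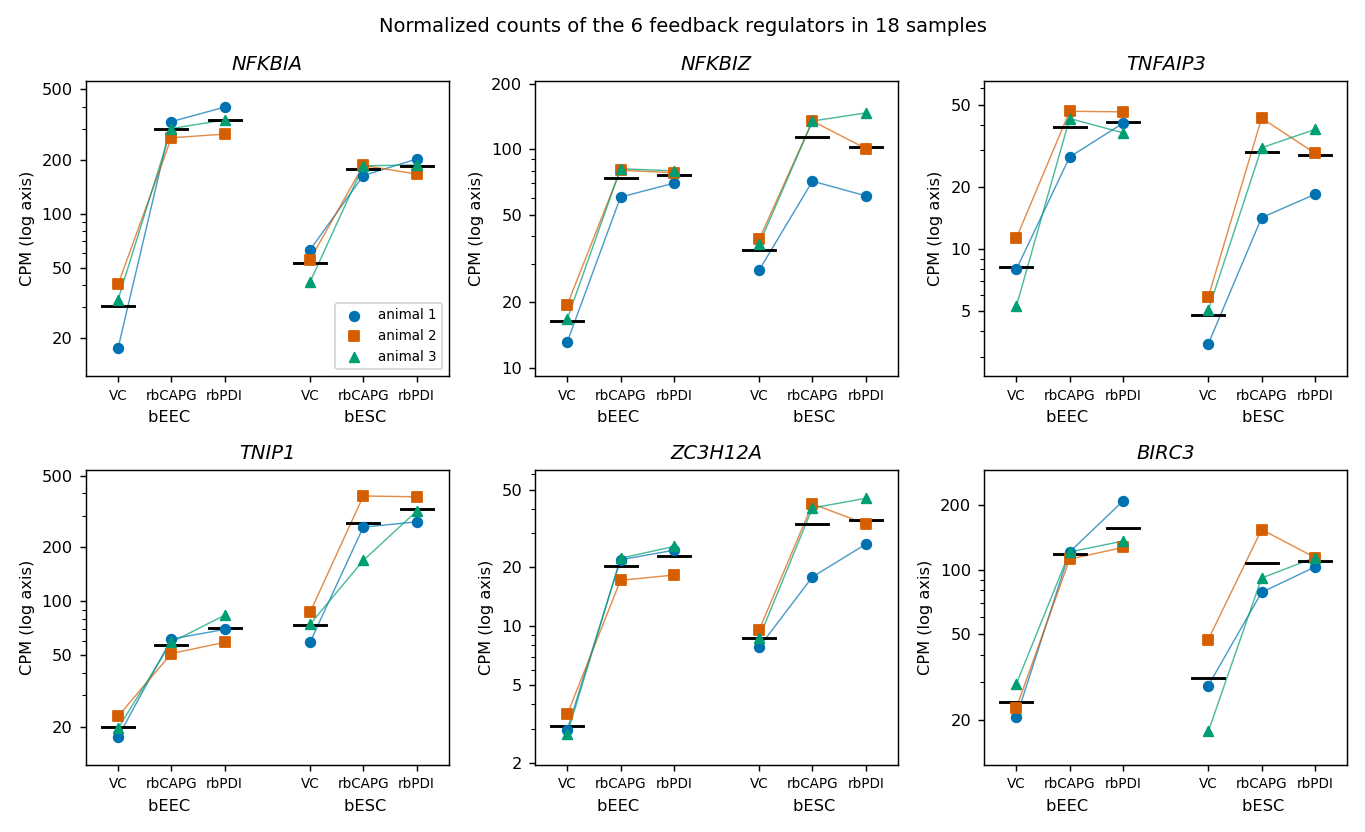
Normalized counts of the 6 regulators in all 18 samples, in CPM on a log axis, by cell type and treatment. Points are samples, with a colour and shape for each animal and thin lines joining the samples of 1 animal, and black bars are means of 3. In each cell type the VC points of every gene lie below all treated points.

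NFKBIA, which encodes IkB-alpha, stood at 17.6, 40.2 and 33.0 CPM in the VC bEECs of animals 1, 2 and 3. With rbCAPG it reached 329, 267 and 301 CPM, and with rbPDI 397, 280.1 and 336 CPM. Animal 1 had the lowest level with VC and the highest with each protein, so that its change was 18.7-fold with rbCAPG and 22.5-fold with rbPDI, whereas the other animals lay between 6.64-fold and 10.2-fold. The fitted log2 fold change was 3.30 with rbCAPG (SE 0.28, adjusted p = 9.24e-06) and 3.48 with rbPDI (SE 0.29, adjusted p = 3.93e-06).

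NFKBIZ encodes IkB-zeta, an inhibitor-like protein of the nucleus that restrains some NF-kB targets and is needed for others. Its VC levels in bEECs were 13.1, 19.4 and 16.7 CPM. They stood against 60.5, 80.4 and 81.6 CPM with rbCAPG and 70.1, 78.2 and 79.8 CPM with rbPDI. The changes within animals were close together, from 4.03-fold to 5.31-fold over both proteins, and the log2 fold changes were 2.18 (SE 0.31, adjusted p = 0.00119) and 2.21 (SE 0.31, adjusted p = 0.000862).

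TNFAIP3, whose product A20 edits ubiquitin on signalling proteins below the TNF and Toll-like receptors, had 7.98, 11.3 and 5.29 CPM in VC bEECs. Its levels were 27.9, 46.4 and 42.8 CPM with rbCAPG and 40.6, 46.1 and 36.5 CPM with rbPDI. Animal 2 was the highest in all 3 groups. TNFAIP3 rose by a log2 fold change of 2.26 with rbCAPG (SE 0.39, adjusted p = 0.00800) and of 2.33 with rbPDI (SE 0.39, adjusted p = 0.00449), with the widest standard error of the 6 genes in both.

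TNIP1, which encodes the ubiquitin-binding partner of A20, had the smallest change of the 6 genes in bEECs. It had 17.6, 22.9 and 19.6 CPM with VC, 61.7, 51.2 and 59.2 CPM with rbCAPG and 69.8, 59.2 and 83.7 CPM with rbPDI. The log2 fold change was 1.52 with rbCAPG (SE 0.27, adjusted p = 0.0106) and 1.82 with rbPDI (SE 0.27, adjusted p = 0.00146). TNIP1 and TNFAIP3 were the members whose call in rbCAPG bEECs rested on single libraries. Without VC replicate 1 their adjusted p-values were 0.102 and 0.0683, without VC replicate 3 they were 0.0922 and 0.0840, and without rbCAPG replicate 3 that of TNIP1 was 0.0521. With rbPDI all 6 genes were called whichever sample was left out.

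BIRC3 encodes cIAP2, a ubiquitin ligase at TNF receptor complexes that also keeps the kinase of the non-canonical pathway at a low level. It had 20.5, 22.7 and 29.3 CPM in VC bEECs, 121, 112 and 121 CPM with rbCAPG and 209, 127 and 136 CPM with rbPDI. The 3 rbPDI samples lay above the 3 rbCAPG samples, led by animal 1. The log2 fold change was 2.28 with rbCAPG (SE 0.33, adjusted p = 0.00146) and 2.70 with rbPDI (SE 0.34, adjusted p = 0.000290). In 14 of 18 samples the count of BIRC3 held a fraction, so reads that it shares with another place or gene were divided.

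ZC3H12A, the gene of the ribonuclease Regnase-1, was at 2.96, 3.55 and 2.81 CPM in VC bEECs. It reached 21.9, 17.2 and 22.3 CPM with rbCAPG and 24.5, 18.3 and 25.6 CPM with rbPDI. Animal 2 had the highest level with VC and the lowest with each protein. Its change was 4.79-fold and 5.07-fold in that animal and between 7.28-fold and 8.96-fold in the other animals. The log2 fold changes of 2.72 (SE 0.30, adjusted p = 0.000111) and 2.87 (SE 0.30, adjusted p = 5.97e-05) were second in size to those of NFKBIA. All 18 counts of ZC3H12A were whole numbers, against between 4 and 14 values with a fraction for each of the other members.

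**Figure D2:**
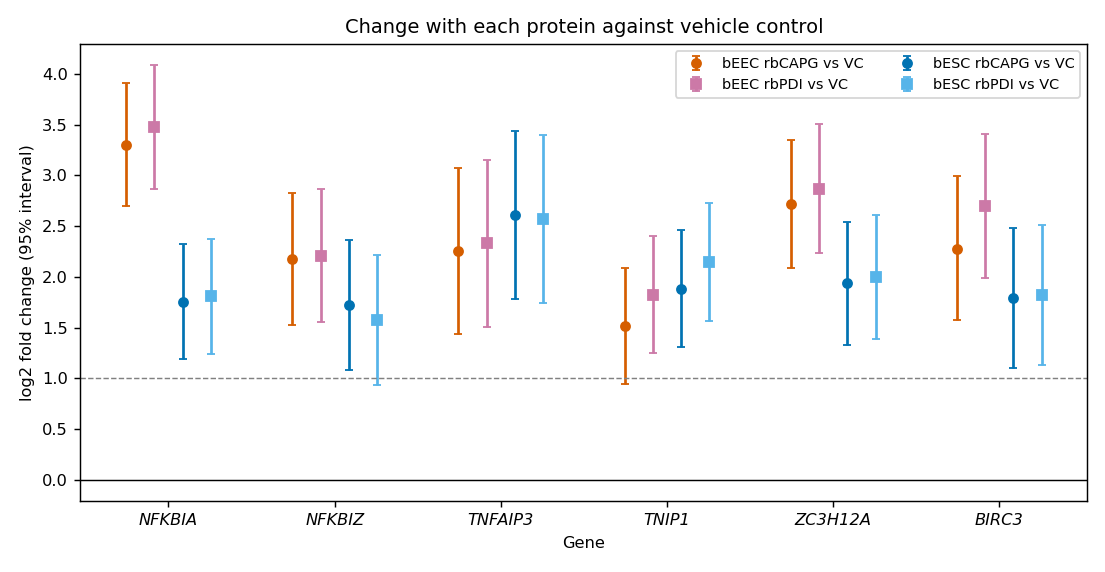
Fitted log2 fold change of each regulator against VC, with a 95% interval derived from the edgeR test, in bEECs and bESCs with rbCAPG or rbPDI. The dashed line marks the log2 fold change of 1 that a call required, and all 24 estimates lie above it, from 1.52 for TNIP1 in rbCAPG bEECs to 3.48 for NFKBIA in rbPDI bEECs.

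On the stromal side of the membrane all 6 regulators were also higher with each protein, without overlap between the treated and the VC samples, and all 6 were called with rbCAPG and with rbPDI. The median log2 fold change was 1.84 with rbCAPG and 1.91 with rbPDI, against -0.01 and 0.00 over all tested genes. The share of tested genes called higher was 0.0948% with rbCAPG and 0.173% with rbPDI (0.468% and 0.987% with the animal as a block, when all 6 were again called). Of all tested genes, 3.02% were higher with rbCAPG without overlap and 4.10% with rbPDI. The identifiers of all 6 genes were taken from the study's list of genes changed by rbCAPG in these bESC samples, so their direction there is not independent evidence, and the rbPDI comparison uses the same VC samples.

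Some or all of the bESC calls were lost in fits that left out single samples or held only the compared samples, while the log2 fold changes of the 6 genes ran from 1.23 to 2.94 without 1 sample and from 1.58 to 2.62 with the compared samples only. Without VC replicate 1, 0 of the 6 genes were called with rbCAPG and 2 with rbPDI. Without VC replicate 3 the numbers were 0 and 1. With rbCAPG, 1 gene was called without rbCAPG replicate 2, and 4 were called without VC replicate 2 or without rbCAPG replicate 3. When only the 6 compared samples were fitted, 0 of 6 were called with either protein, though all 6 kept an unadjusted p-value under 0.05 in both. Within animals, every member was higher with each protein in 3 of 3 animals.

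**Figure D3:**
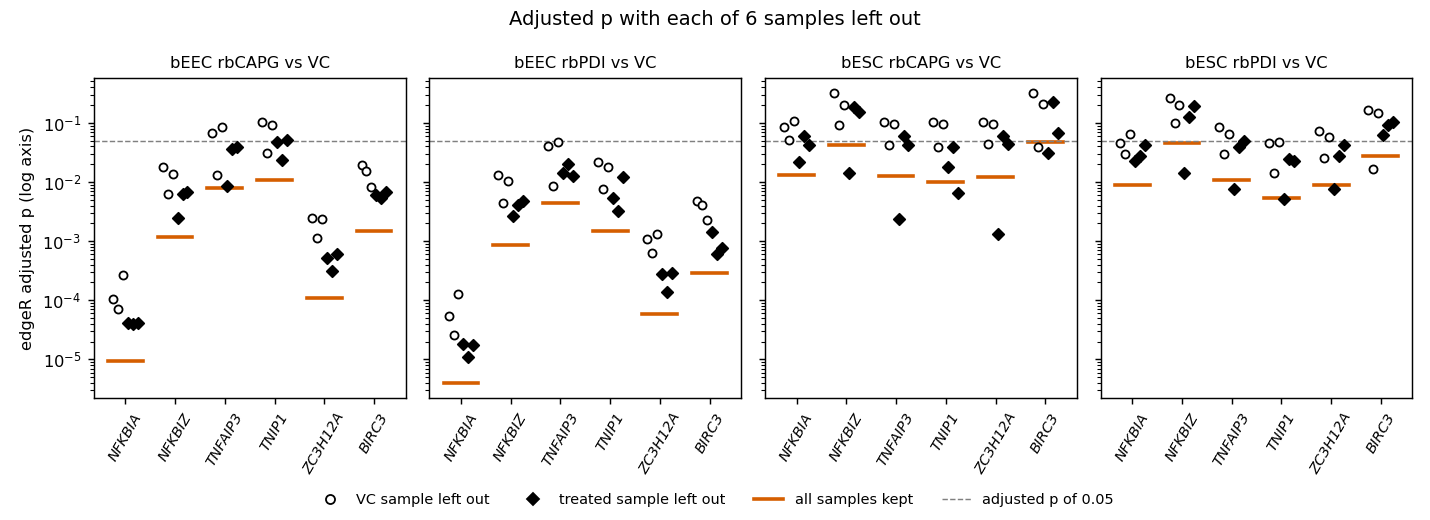
Adjusted p-value of each regulator from edgeR, on a log axis, with each of the 6 compared samples left out in turn (open circles for VC samples, filled diamonds for treated samples) and with all samples kept (orange bars). The dashed line is the threshold of 0.05. For bEECs with rbPDI every point lies under it, whereas for bESCs with rbCAPG all 6 genes cross it without VC replicate 1 or VC replicate 3.

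NFKBIA had 62.7, 55.3 and 41.4 CPM in VC bESCs, 164, 187 and 186 CPM with rbCAPG and 203, 167 and 188 CPM with rbPDI. The treated levels were close together, and the change ran from 2.62-fold to 4.53-fold over animals and proteins. Its log2 fold change was 1.75 with rbCAPG (SE 0.27, adjusted p = 0.0133) and 1.81 with rbPDI (SE 0.27, adjusted p = 0.00889). Of 6 fits that left out a sample, the call remained in 2 with rbCAPG and in 5 with rbPDI.

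In NFKBIZ, animal 1 had the lowest level of the 3 animals in every bESC group: 28.0 CPM with VC against 38.7 and 36.8 CPM, 71.6 CPM with rbCAPG against 135 and 135 CPM, and 61.3 CPM with rbPDI against 101 and 147 CPM. The samples of animal 1 were also the shallowest of each bESC group, and the part of depth in these levels was not tested. The log2 fold changes were 1.72 (SE 0.30, adjusted p = 0.0423) and 1.58 (SE 0.30, adjusted p = 0.0456). Both adjusted p-values lay close to the threshold, and the call remained in 1 of 6 fits that left out a sample, with either protein.

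TNFAIP3 was low in VC bESCs, at 3.48, 5.86 and 5.06 CPM, and reached 14.2, 43.0 and 30.9 CPM with rbCAPG and 18.4, 29.1 and 37.9 CPM with rbPDI. Animal 1 was again the lowest in each group. TNFAIP3 had the highest estimate of the 6 genes in bESCs with both proteins, a log2 fold change of 2.61 with rbCAPG (SE 0.39, adjusted p = 0.0128) and 2.57 with rbPDI (SE 0.39, adjusted p = 0.0109).

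TNIP1 went from 59.1, 86.7 and 74.5 CPM in VC bESCs to 259, 386 and 169 CPM with rbCAPG and 277, 382 and 318 CPM with rbPDI. The rbCAPG samples were spread widely, with animal 3 at a 2.27-fold change and the other animals above it, up to 4.44-fold. With rbPDI the 3 animals lay between 4.27-fold and 4.68-fold. Its log2 fold change was 1.88 with rbCAPG (SE 0.27, adjusted p = 0.0101) and 2.15 with rbPDI (SE 0.27, adjusted p = 0.00526), and the rbPDI call remained in 6 of 6 fits that left out a sample.

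ZC3H12A stood at 7.84, 9.59 and 8.74 CPM in VC bESCs, at 17.9, 42.2 and 40.3 CPM with rbCAPG and at 26.3, 33.4 and 45.1 CPM with rbPDI. Here too animal 1 was the lowest in each group. The log2 fold changes were 1.94 (SE 0.29, adjusted p = 0.0122) and 2.00 (SE 0.29, adjusted p = 0.00889). BIRC3 had 28.8, 47.2 and 17.6 CPM in VC bESCs, 78.4, 154 and 91.4 CPM with rbCAPG and 103, 114 and 114 CPM with rbPDI. The VC and rbCAPG samples of BIRC3 were spread, with animal 2 the highest in both, whereas the rbPDI samples lay close together. Its log2 fold changes were 1.79 (SE 0.33, adjusted p = 0.0482) and 1.82 (SE 0.33, adjusted p = 0.0275). Of 6 fits that left out a sample, the BIRC3 call remained in 2 with rbCAPG and in 1 with rbPDI. Without the shallow rbPDI replicate 1, 5 of the 6 genes were called with rbPDI, and BIRC3 had an adjusted p-value of 0.0612.

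With VC, 3 of the 6 genes were called between bESCs and bEECs, all higher in bESCs, where 38.5% of all tested genes were called in either direction and 18.9% higher in bESCs. Cell type and chamber cannot be told apart in this device. TNIP1 was higher in bESCs by a log2 fold change of 1.88 (SE 0.27, adjusted p = 3.16e-05), ZC3H12A by 1.49 (SE 0.29, adjusted p = 0.000516) and NFKBIZ by 1.07 (SE 0.30, adjusted p = 0.00750). NFKBIA was 0.81 higher (SE 0.26, adjusted p = 0.0178), short of the limit on the fold change. For these 4 genes the VC samples of bEECs and bESCs did not overlap, as for 28.3% of tested genes that were higher in bESCs. The VC samples of the 2 cell types overlapped for BIRC3, with a log2 difference of 0.37 (95% interval -0.30 to 1.04), and for TNFAIP3, with -0.76 (95% interval -1.56 to 0.04, adjusted p = 0.106).

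The order of the 6 group levels differed between the genes. NFKBIA was lowest in VC bEECs (30.2 ± 11.6 CPM, SD, n = 3) and then in VC bESCs (53.1 ± 10.8 CPM). Above them came the treated bESCs (179 ± 12.7 CPM with rbCAPG, mean 186 CPM with rbPDI), and the treated bEECs were highest (299 ± 31.0 and 338 ± 58.3 CPM). In that order only neighbours that differ in the protein alone overlapped. For TNIP1 the treated bEECs (57.3 ± 5.50 CPM with rbCAPG, 70.9 ± 12.3 CPM with rbPDI) reached no more than the range of VC bESCs (73.5 ± 13.8 CPM), which the samples of both proteins overlapped. The treated bESCs lay above all of them (271 ± 109 and 326 ± 53.1 CPM). For TNFAIP3 all 4 treated groups overlapped their neighbours, with means from 28.5 to 41.1 CPM. The treated groups of NFKBIZ and ZC3H12A likewise formed a chain of overlapping neighbours, with bEECs at the lower end. For BIRC3 bEECs were at the upper end, and the treated groups overlapped their neighbours except that rbPDI bEECs lay above rbCAPG bEECs.

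**Figure D4:**
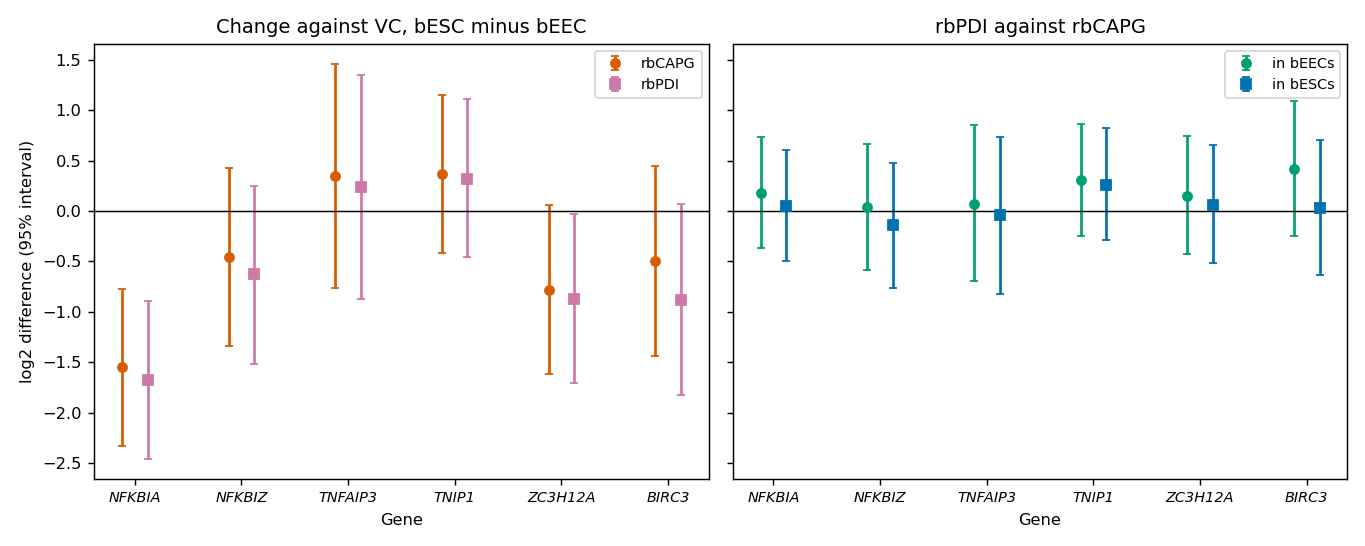
Left, the log2 difference between the change in bESCs and the change in bEECs for each protein; right, the log2 difference between rbPDI and rbCAPG in each cell type. Points are edgeR estimates and bars are 95% intervals. NFKBIA lies below 0 on the left with both proteins, at -1.55 and -1.68, and every interval on the right includes 0.

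Whether a regulator changed by a different amount on the 2 sides of the membrane was tested by an interaction term, and 0 of 6 genes were called for either protein. At an unadjusted p-value under 0.05 there was 1 gene with rbCAPG and there were 2 with rbPDI. Of all tested genes, 0.0669% were called for rbCAPG and 0.0948% for rbPDI (0.223% and 0.441% with the animal as a block, again with 0 members). NFKBIA was the member with the largest difference. The log2 change with rbCAPG in bESCs minus that in bEECs was -1.55 (95% interval -2.33 to -0.77, adjusted p = 0.334). With rbPDI the difference was -1.68 (95% interval -2.46 to -0.89, adjusted p = 0.171). In each of the 3 animals the change was smaller in bESCs, with rbCAPG at 2.62-fold against 18.7-fold, 3.38-fold against 6.64-fold and 4.49-fold against 9.09-fold in animals 1, 2 and 3. NFKBIA was called with DESeq2, at adjusted p-values of 0.0121 and 0.00249. It was not called with the animal as a block within each cell type, at 0.193 and 0.0946. ZC3H12A differed by -0.78 with rbCAPG (95% interval -1.62 to 0.06) and by -0.87 with rbPDI (95% interval -1.71 to -0.03, adjusted p = 1.00). The other 4 genes had differences between -0.88 and 0.37, with intervals that include 0 for both proteins.

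Both proteins were used at the same dose for the same time, so rbPDI can be set directly against rbCAPG. That gave 12 comparisons of a gene in a cell type, and 0 were called. Over all tested genes 0 were called in either cell type by edgeR or by DESeq2, with 103 genes in bEECs and 319 in bESCs at an unadjusted p-value under 0.05 in edgeR, none of them a member. In bEECs all 6 log2 differences were positive, from 0.04 for NFKBIZ (95% interval -0.59 to 0.66) to 0.42 for BIRC3 (95% interval -0.25 to 1.09). BIRC3 was the only member whose rbPDI samples all lay above the rbCAPG samples, which 2.14% of tested genes did. NFKBIA, BIRC3, TNIP1 and ZC3H12A were higher with rbPDI in 3 of 3 animals in bEECs, and NFKBIZ and TNFAIP3 in 1 of 3. In bESCs the log2 differences ran from -0.14 for NFKBIZ (95% interval -0.76 to 0.48) to 0.26 for TNIP1 (95% interval -0.29 to 0.82), and the groups overlapped for all 6 genes. The intervals of TNFAIP3, from -0.70 to 0.85 in bEECs and from -0.82 to 0.73 in bESCs, were the widest. This gene was therefore the least precisely compared. In bESCs the animals differed in direction. In animal 2, 6 of 6 genes were lower with rbPDI than with rbCAPG, from 0.676-fold to 0.992-fold, whereas in animal 3 all 6 were higher, from 1.01-fold to 1.88-fold. For these counts within animals, in both cell types, the share over all tested genes was not computed. The 6 genes are also correlated within each cell type, so the counts are no test.

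Over the 18 samples the log2 levels of the 6 genes moved together to different degrees, with Pearson correlations of pairs from 0.406 (TNFAIP3 with TNIP1) to 0.976 (NFKBIZ with ZC3H12A) and a median of 0.838. Within the 9 bEEC samples they ran from 0.917 to 0.989 and within the 9 bESC samples from 0.843 to 0.992. These are descriptions, since the samples share treatments and animals. The 3 lowest values over all samples were those of TNIP1 with TNFAIP3, NFKBIA and BIRC3. The VC level of TNIP1 differed most between the cell types, while TNFAIP3 was the member whose estimate was lower in bESCs. The genes with a symbol whose pattern over 18 samples was most like the mean of the 6 regulators were GRO1 (Pearson correlation 0.967), CXCL2 (0.954), CXCL3 (0.932), NFKB2 (0.917), CCL20 (0.895) and CCL5 (0.894). They were also the top 6 of all 17925 other tested genes. Of these, 5 are chemokine genes and NFKB2 encodes an NF-kB subunit.

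Among the other genes of the pathway, those that encode NF-kB itself and an upstream kinase were called higher in bEECs, 3 of 3 with each protein. All genes of these lists were taken from genes that the study had called with rbCAPG in these samples, which is not independent evidence of their direction. The kinase gene MAP3K8 rose by a log2 fold change of 2.19 with rbCAPG (SE 0.42, adjusted p = 0.0217) and 2.53 with rbPDI (SE 0.42, adjusted p = 0.00488). NFKB1 and NFKB2, the subunit precursors, rose by 1.13 and 1.36 with rbCAPG and by 1.29 and 1.52 with rbPDI. In bESCs 0 of 3 were called, with log2 fold changes from 0.69 to 1.70. With the animal as a block MAP3K8 was called with both proteins and NFKB2 with rbPDI. Of 6 fits without 1 sample, the rbCAPG calls in bEECs remained in 1 for MAP3K8, 1 for NFKB1 and 0 for NFKB2, and the rbPDI calls in 5, 3 and 2.

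Of 6 receptor genes, 2 were called higher in bEECs with rbCAPG and 4 with rbPDI, and 6 of 6 with the animal as a block for each. CD40, a costimulatory receptor of the TNF receptor family, rose by 2.44 (SE 0.34, adjusted p = 0.000910) and 3.07 (SE 0.34, adjusted p = 0.000109) on the log2 scale. In bESCs, 0 of the 6 were called with rbCAPG, and CD40 alone with rbPDI (1.69, SE 0.33, adjusted p = 0.0494). With the block the numbers were 2 and 4. Of 6 fits without 1 sample, the CD40 call remained in 6 with each protein in bEECs and in 0 with rbPDI in bESCs. In bEECs the call of IL18R1 with rbCAPG remained in 2. With rbPDI those of TNFRSF9, TNFRSF11B and CD14 remained in 2, 1 and 0. CD14 stands in this list and also marks myeloid cells.

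Ligands formed the longest list, with 14 genes. In bEECs 6 were called higher with rbCAPG and 9 with rbPDI, in bESCs 6 and 8, and none was called lower. With the animal as a block the numbers were 12, 12, 9 and 12. In bEECs the 3 with the smallest p-values were CXCL3, CXCL2 and GRO1, chemokines that attract neutrophils, with log2 fold changes of 8.09, 9.44 and 7.60 with rbCAPG and 8.76, 10.33 and 8.10 with rbPDI. These related genes can share reads. In bESCs with rbCAPG, CXCL3, CXCL2 and GRO1 rose by 3.30, 4.59 and 3.93. Of 6 fits without 1 sample, these bESC calls remained in 2, 4 and 4, and the bEEC calls of the same genes in 6 with each protein. CXCL2, CXCL3 and CXCL5 changed less in bESCs than in bEECs by the interaction test with both proteins, by differences of -4.85, -4.79 and -6.25 with rbCAPG (adjusted p = 0.0490, 0.0292 and 0.0173), and GRO1 did with rbPDI as well (-4.15, adjusted p = 0.0402). With VC these genes were already higher in bESCs, CXCL2 by 5.69, CXCL3 by 4.42 and CXCL5 by 7.92 on the log2 scale. The rbCAPG interaction calls were lost when only the compared samples were fitted (adjusted p = 0.0853, 0.0853 and 0.0675), and of 12 fits without 1 sample they remained in 1 for CXCL2, 4 for CXCL3 and 7 for CXCL5. Over all genes that interaction had 0 calls without VC bEEC replicate 1 or 3, rbCAPG bEEC replicate 3 or rbCAPG bESC replicate 1. With rbPDI the calls of CXCL3 and CXCL5 remained in 12 of 12 such fits, that of CXCL2 in 6 and that of GRO1 in 2.

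Of 7 intracellular targets, 1 was called higher with rbCAPG in each cell type and 2 with rbPDI in each, and none was called lower. With the block the numbers were 3 and 4 in bEECs and 5 and 6 in bESCs. PTGS2, the prostaglandin synthase, was among them each time, with log2 fold changes of 3.11 and 3.31 in bEECs and 3.99 and 3.80 in bESCs. TNFAIP2 was called in rbPDI bEECs (3.74, SE 0.75, adjusted p = 0.0219) and IER3 in rbPDI bESCs (2.17, SE 0.39, adjusted p = 0.0279). Of 6 fits without 1 sample, the PTGS2 calls remained in 2 with rbCAPG and 5 with rbPDI in bEECs. In bESCs they remained in 4 with each protein, and the calls of TNFAIP2 and IER3 each remained in 2. When only the compared samples were fitted, the bESC calls of PTGS2 (adjusted p = 0.605 with rbCAPG, 0.0918 with rbPDI) and IER3 (0.279) were lost. For TNFAIP2 the interaction was called only with the block, and was then lower in bESCs with both proteins (adjusted p = 0.0259 and 0.00389).

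The summed level of the 2 myeloid markers in bEECs, AIF1 and CD14, which were drawn from the study's lists for rbCAPG, ran from 12.7 to 21.0 CPM with VC, from 44.7 to 58.4 CPM with rbCAPG and from 53.0 to 71.5 CPM with rbPDI, and 0 of the 2 were called with rbCAPG and CD14 with rbPDI. In bESCs the sum ran from 4.35 to 20.0 CPM over all groups, and AIF1 was at 0 in all VC samples. The 2 endothelial markers, TEK and SELP, summed to between 1.53 and 3.75 CPM in VC bEECs. In treated bEECs the sum was between 5.07 and 37.4 CPM, and 1 of the 2 was called with rbPDI. In bESCs it ran from 116 to 214 CPM with VC. There it ran from 316 to 646 CPM with rbCAPG, without overlap, and from 82.2 to 518 CPM with rbPDI. In bESCs 0 of the 2 were called with either protein. The bESC level was nearly all SELP (82.0 to 646 CPM), while TEK, the angiopoietin receptor gene, ran from 0.0742 to 0.475 CPM. The part of these marker levels in the levels of the regulators was not tested.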

How the data were processed

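RNA was sequenced from 18 samples (6 groups, n = 3 animals) of the endometrium-on-a-chip. The authors trimmed paired-end reads from SMART-Seq libraries with Trimmomatic, aligned them with STAR to ARS-UCD1.3 and counted them with featureCounts on Ensembl genes, dividing reads with several matches or overlapping genes into fractions. The deposited values are therefore estimated counts, not normalized, and 23.3% of them were not whole. A strand setting is not given in the sources used here, so overlapping or antisense genes can share reads. The groups and replicate numbers came from the labels.

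The estimated counts were rounded to whole numbers. In R 4.3.3, edgeR 4.0.16 was used with TMM factors and filterByExpr (17931 of 36075 genes kept), and the quasi-likelihood model held a mean for each of 6 groups, with 12 residual degrees of freedom over 18 samples. Benjamini-Hochberg adjustment ran over the 17931 genes within each of 9 comparisons. Exact permutation of 3 against 3 samples reaches no two-sided p-value below 0.1. Standard errors were derived from the log2 fold change and the F statistic of the edgeR test, and the 95% intervals from these standard errors. The smallest library held 10072851 counts, of which 3 counts are 2.98e-05% of the total, a floor that covers counting error only.

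The labels number biological replicates, and the methods state that both cell types of a device came from the same animal. Same-numbered samples were taken to come from the same animal across treatments too, which neither source states outright. Their deviations from the group means correlated at 0.481 on average in bEECs (9 pairs, lowest 0.311), 0.396 in bESCs (9 pairs, lowest 0.129) and 0.175 between cell types (27 pairs). The alternatives were DESeq2 1.42.0 (the tool of the study, local fit), edgeR with its size factors, edgeR without the low count filter or with at least 10 counts in 9 samples, fits to the compared groups only, the animal as a block, calls without the fold change limit, and leaving out each sample. The block was a separate effect of the animal in each cell type, also in the interactions. For bESCs against bEECs with VC it was shared by both cell types.

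The members, pathway lists and marker lists were chosen with earlier results of these data known. The 6 members are named in every comparison. Of each pathway list, genes were named from the 3 with the smallest p-values, and the similar genes are the 6 with the highest correlation. Symbols came from the study's supplementary lists of genes changed by rbCAPG (190 of 245 identifiers have one), those of the members from the list for bESCs alone. Genes outside them, such as other feedback genes, were not analysed here. The reference gene table matched 0 identifiers, so no sequences or coordinates are given.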

Additional observations from a re-analysis of the deposited data

How the results depend on the processing

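When only the compared samples were fitted, 0 of the 6 regulators were called in bESCs with rbCAPG and 0 with rbPDI, and DESeq2 called 1 (NFKBIA) in each interaction test. Fits that each left out 1 sample called 4 to 6 regulators in bEECs with rbCAPG, 6 to 6 with rbPDI, 0 to 6 in bESCs with rbCAPG, 1 to 5 with rbPDI, 2 to 4 between the cell types with VC, and 0 to 0 in the interactions and between the proteins. The alternatives other than these left the number of regulators called within 1.5 times. The animal as a block changed no call of a regulator.

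Over all tested genes, numbers called moved more. In bEECs with rbCAPG 92 genes became 270 with DESeq2 and 392 with the block, and with rbPDI 145 became 381 and 531. In bESCs with rbCAPG 17 became 71, 86, 30 with no filter and 0 with the compared groups only, and with rbPDI 32 became 175, 189, 54 and 3. The interaction for rbCAPG went from 12 to 47, 40, 23 and 0, and that for rbPDI from 17 to 85, 79 and 27. Fits without 1 sample gave 48 to 77, 75 to 123, 0 to 20 and 7 to 43 genes in the 4 comparisons with VC, and the 0 came without bESC VC replicate 1 or without bESC VC replicate 3. They gave 0 to 12 genes in the rbCAPG interaction and 6 to 18 in that for rbPDI.

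Signs changed only for differences that were not called. BIRC3 between the cell types with VC ran from -0.04 to 0.65 over fits without 1 sample, the lowest without bESC VC replicate 2. Over such fits the TNFAIP3 interaction ran from -0.04 to 0.69 for rbCAPG and from -0.06 to 0.47 for rbPDI. Between rbPDI and rbCAPG in bEECs, NFKBIZ ran from -0.09 to 0.11 and TNFAIP3 from -0.12 to 0.21. In bESCs NFKBIA ran from -0.03 to 0.10, NFKBIZ from -0.49 to 0.11, TNFAIP3 from -0.40 to 0.33, TNIP1 from -0.01 to 0.59, ZC3H12A from -0.26 to 0.26 and BIRC3 from -0.18 to 0.36. With no filter NFKBIA was -0.0042 and BIRC3 -0.03 there, and with the block TNFAIP3 was 0.03. The cause was not tested. The 3 samples in a group limit what could be detected, and rbPDI bESC replicate 1 had the fewest counts.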
